A study of Mus musculus with 24 samples.

Results

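The genes described here are 4 connexins of mouse skin, Gja1, Gjb2, Gjb5 and Gjb6, measured in peeled epidermis with and without the spindle checkpoint gene Mad2. They were found by name among the probe rows of the scanner file. The 4 genes had 6 probes, of 45281 probes that carry 28902 gene names. Gjb2 had 3 of these probes and each of the other genes had 1.

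Connexins are membrane proteins that assemble into hemichannels, and hemichannels of neighbouring cells dock to form gap junctions, through which ions and small molecules pass from cell to cell. In epidermis Gja1 (connexin 43, Cx43) is the broadly expressed member of the basal and spinous layers, and it is also made by fibroblasts, vessels and melanocytes. Gjb2 (Cx26) and Gjb6 (Cx30) are sparse between the hair follicles of resting skin, present in follicles and on palms and soles, and known to appear in wounded and hyperproliferative epidermis. Inherited changes in GJB2 and GJB6 cause skin diseases in humans, several of them with hearing loss. Gjb5 (Cx31.1) is a keratinocyte connexin.

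Epidermis of B6-129Sv mixed mice was peeled from the dermis after trypsin overnight, and its RNA was measured on 24 Illumina BeadChip arrays, each for a different sample. Mutants (Mad2f/f; K14-Cre) had both copies of Mad2 (gene symbol Mad2l1) floxed and carried Cre recombinase under a keratin 14 promoter, which is active in basal keratinocytes and their descendants, follicles included. Controls of postnatal days 3 to 20 were Cre-negative, and the labels do not give their Mad2 alleles. There were 2 mutants and 4 controls at postnatal day 3 (P3), 2 and 2 at P6, 2 and 2 at P13, and 2 and 3 at P20. For another P3 array the labels give the mutant genotype but call the sample a control, and it entered neither group. The adult samples were 1 Mad2f/f; K14-Cre mutant, 2 mutants that also carried a floxed Trp53 allele (p53f/+), and 1 control with Cre and a single floxed Mad2 allele (Mad2f/+). P3 mutants were recorded without a phenotype, and all older mutants as nude. The age of the adults is not given.

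Values below are log2 of the background-corrected, quantile-normalized intensity, and they can be compared between arrays for the same probe but not between probes. A gene is said to have risen or fallen where its p-value from limma, adjusted over the 14215 genes tested, was under 0.05. SE is the standard error of a log2 difference. The spread behind it is pooled over all groups. The labels do not say that each sample came from a different animal, so the p-values measure the spread between these samples, which may be technical in part. Arrays detected 23.3% to 40.1% of their probes (detection p under 0.01). The targeted gene was lower in mutants: Mad2l1 was at least 2.63-fold lower at P3, at least 8.36-fold at P13 and at least 1.84-fold at P20, where mutant arrays did not detect its probe. At P6 both mutants detected it, at 6.03 and 6.41 against 8.20 and 8.76 in controls, and it fell by 2.26 ± 0.48 on the log2 scale (SE, adjusted p = 0.00277). The position of that probe relative to the deleted exons is not given in the sources used here.

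Gjb2 and Gjb6 are neighbours in the genome. In GRCm38.p6, Gjb2 lies at chr14:57098602-57104702 and Gjb6 at chr14:57123301-57133611, both on the minus strand with 18.6 kb between them. Gja1 lies alone at chr10:56377300-56390419 on the plus strand. Gjb5, at chr4:127354809-127358164, is on the minus strand. The 250 bases upstream of the annotated start are shown for Gjb2 and Gjb6, which were both higher in P20 mutants. They are also shown for Gja1, the other member with a called difference between genotypes. They are RefSeq sequences of GRCm38.p6, written along the gene's strand, at chr14:57104703-57104952, chr14:57133612-57133861 and chr10:56377050-56377299. Capitals mark matches on either strand to the GC box GGGCGG, the TATA box TATAAA or the AP-1 site TGANTCA.
Gjb2: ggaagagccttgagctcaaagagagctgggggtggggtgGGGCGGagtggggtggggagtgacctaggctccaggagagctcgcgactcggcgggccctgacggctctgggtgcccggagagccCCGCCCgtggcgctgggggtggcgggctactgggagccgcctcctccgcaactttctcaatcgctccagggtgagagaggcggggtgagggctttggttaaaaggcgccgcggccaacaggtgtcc
Gjb6: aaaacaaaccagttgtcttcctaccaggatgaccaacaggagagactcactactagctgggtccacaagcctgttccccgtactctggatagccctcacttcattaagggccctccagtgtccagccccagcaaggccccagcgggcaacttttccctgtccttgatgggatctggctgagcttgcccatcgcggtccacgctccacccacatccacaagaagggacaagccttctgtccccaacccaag
Gja1: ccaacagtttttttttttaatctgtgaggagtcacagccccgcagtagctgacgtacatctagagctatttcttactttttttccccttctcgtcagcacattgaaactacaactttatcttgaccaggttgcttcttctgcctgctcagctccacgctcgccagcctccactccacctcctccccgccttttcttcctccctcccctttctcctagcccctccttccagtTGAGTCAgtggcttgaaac
The Gjb2 sequence held 2 GC boxes and 69.2% G and C. Its neighbour Gjb6 held none of the 3 motifs in this window and 56.8% G and C. For Gja1 the window held 1 AP-1 match. Among 32851 promoters of the same length, 32.7% held a GC box, 12.4% a TATA box and 6.7% an AP-1 match, with a median of 52.4% G and C. A match is a run of letters and not a measured binding site.

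The genotype difference with the smallest adjusted p among the 4 genes was that of Gjb6 at P20. Its log2 intensity was 7.87, 7.51 and 7.36 in the 3 controls and 12.02 and 12.27 in the 2 mutants. The groups were far apart: the lowest mutant stood more than 4 units above the highest control. The mutants averaged 12.14 ± 0.17 (SD, n = 2) and the controls 7.58 ± 0.26 (SD, n = 3). Gjb6 rose by 4.57 ± 0.47 (SE, adjusted p = 1.87e-05), which is 23.7-fold. In the authors' normalized values it was 3.53 ± 0.26 (SE, adjusted p = 2.93e-06), a smaller fold. The arrays of P20 lay on 2 chips, and both held mutants and controls. Within the chip called F here (1 mutant, 1 control) the difference was 4.15, and within chip G (1 mutant, 2 controls) it was 4.83. The chip F comparison sets 1 array against 1, so its spread cannot come from the arrays compared. These within-chip values were added after the data were seen.

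Gjb2 differed in the same direction at P20, with a wider spread. Its brightest probe, ILMN_2999627, read 9.85, 7.14 and 6.08 in controls, the lowest of which was not detected above background. The mutants read 13.36 and 11.22. Both mutants stood above all 3 controls, but each group ranged over more than 2 units. Gjb2 rose by 4.60 ± 0.94 (SE, adjusted p = 0.00533), or 24.2-fold, and 3.45 in the authors' normalized values (adjusted p = 0.00284). The call ended in a fit of P20 arrays alone (adjusted p = 0.242) and without mutant sample 1 (3.53, adjusted p = 0.0595). It also ended within chip F (3.51), and within chip G the difference was 4.61. Background had already been subtracted in the arrays of chip G. They detected 23.3% to 26.9% of their probes, against 32.3% and 33.5% for the P20 arrays of chip F. The controls at 7.14 and 6.08, near background, lay on chip G.

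The other Gjb2 probes showed the same direction at P20 with different sizes. Probe ILMN_1227148 read 7.72, 4.60 and 4.87 in controls, of which 1 was above background, and 11.79 and 8.74 in mutants. That is a difference of 4.53 ± 1.18 (SE, adjusted p = 0.0234 over all 20430 probes kept), mostly against signals at background. Probe ILMN_2604713 read 4.83, 5.11 and 5.38 in controls, none above background, and 9.14 and 6.15 in mutants, of which 1 was above it. The difference of 2.54 on that probe did not pass the test (adjusted p = 0.0840). It rests on the 1 mutant array above background, so no bound is given for the group. In each of the 3 probes mutant sample 1, on chip F, was the higher mutant. The control on chip F was the highest control on 2 of the 3 probes, at 9.85 and 7.72, and the lowest on ILMN_2604713, at 4.83.

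**Figure D1:**
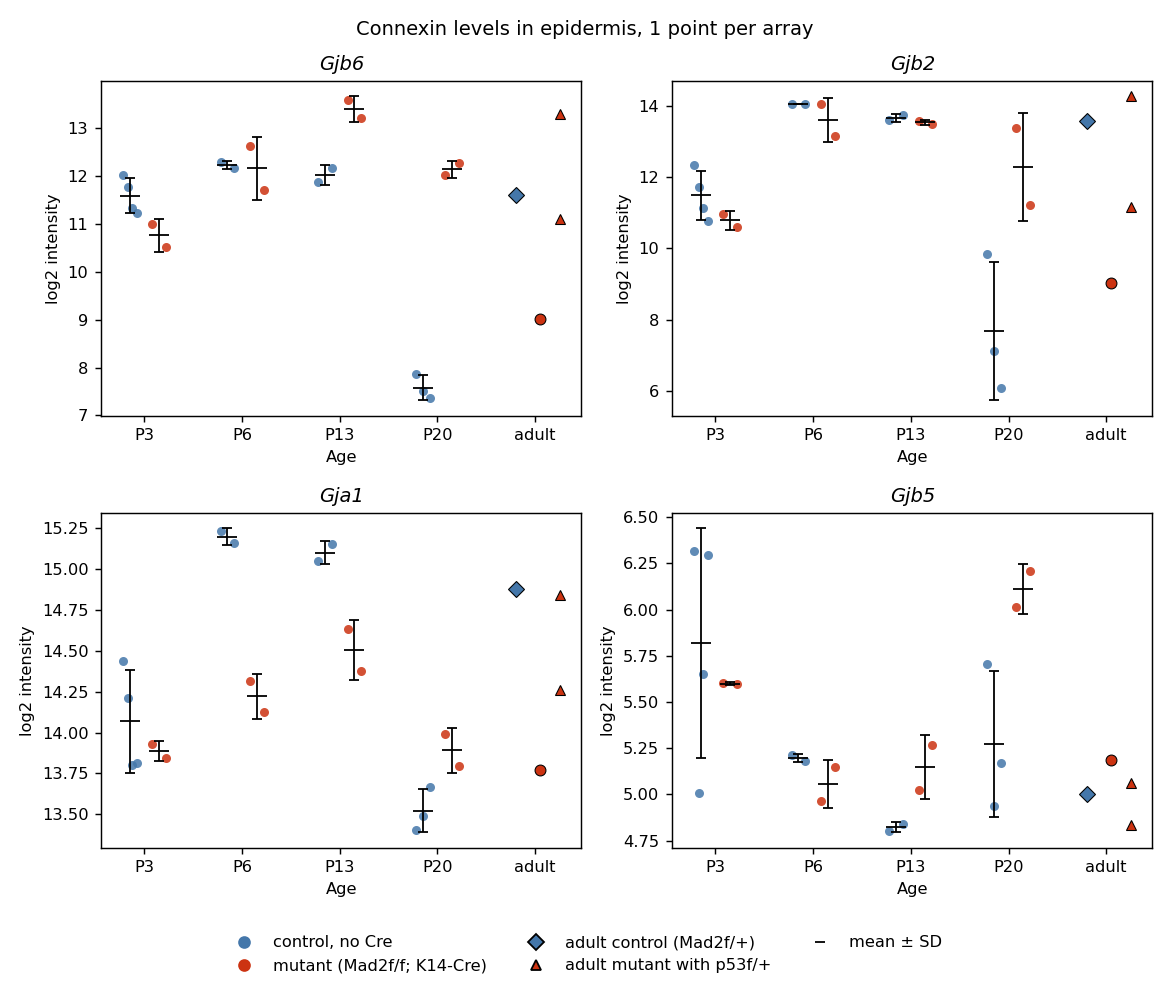
Log2 intensity (vertical axes, a separate scale per gene) of Gjb6, Gjb2, Gja1 and Gjb5 by age, 1 point per array, with blue for controls, red for mutants and black bars for mean ± SD at P3 to P20; adult arrays are single points. At P20 the Gjb6 controls lie between 7.36 and 7.87 and the mutants at 12.02 and 12.27, and Gjb5 stays between 4.80 and 6.31 throughout.

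Of the 4 connexins, 2 rose and none fell at P20, where 10.1% of all genes tested were called in either direction and 4.41% rose. Gja1 and Gjb5 were not called. Gja1 read 13.41, 13.49 and 13.67 in P20 controls and 13.99 and 13.80 in mutants. Every mutant was above every control by a small margin, and the difference of 0.37 ± 0.24 (SE) had a 95% interval from -0.13 to 0.87 (adjusted p = 0.380). Gjb5 is treated below with its near-background signal. The labels describe tissue samples, so fewer cells of a type and less RNA per cell cannot be told apart in these values.

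Marker lists place this rise beside other P20 differences. The wound and hyperproliferation list (Krt6a, Krt16, S100a8 and others) had 7 of 10 genes higher in P20 mutants and none lower, and its summed intensity was 140073 to 168504 in mutants against 36345 to 48388 in controls. The same list was also higher at ages without a call for Gjb2 or Gjb6, with 3 of 10 genes at P3, 9 of 10 at P6 (140879 to 227410 against 46130 to 46851), 6 of 10 at P13 (227862 to 253979 against 43830 to 48986) and 6 of 10 in adults. Of the spinous and granular list 3 of 7 tested genes were higher, and of the basal list 0 of 7 were called. The part of these cell states in the Gjb2 and Gjb6 values was not tested. Hair shaft and inner root sheath markers were low in both groups (533 to 746 summed in mutants, 447 to 3623 in controls), with 1 of 11 lower in mutants. Fibroblast markers summed to 772 to 932 in mutants and 1210 to 4606 in controls, with 2 of 11 lower, and Col1a1 was detected in 0 of 2 mutants and 1 of 3 controls. Melanocyte markers had 2 of 5 higher in P20 mutants (1544 to 3577 against 273 to 3117). Hair follicle stem cell markers had 3 of 6 lower (2644 to 5081 against 35859 to 38734). T cell markers had 2 of 3 lower (690 to 2891 against 4144 to 5444), and endothelium and blood markers 2 of 9 (761 to 1085 against 2797 to 74153). The part of these cells in the P20 differences was not tested.

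The controls also differed between ages. Each age from P3 to P20 lay on chips of its own, so age and chip cannot be told apart in these differences. P20 control samples 4 and 5 lay on chip G, where a background was already subtracted. Gjb6 in controls read 12.03, 11.78, 11.35 and 11.23 at P3. At P6 it read 12.29 and 12.17, and at P13 11.88 and 12.18. All 8 of these controls stood above 11 and the 3 controls of P20 below 8. From P6 to P20 the controls fell by 4.65 ± 0.47 (SE, adjusted p = 2.28e-06), from P13 to P20 by 4.45 (adjusted p = 4.52e-06) and from P3 to P20 by 4.02 (adjusted p = 2.25e-06).

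Gjb2 in controls read 12.33, 11.73, 11.13 and 10.77 at P3, 14.05 and 14.04 at P6, and 13.58 and 13.74 at P13. P6 and P13 controls were thus above every P3 control, and every P3 control was above the P20 values given earlier. The rise from P3 to P6 was 2.55 ± 0.90 (SE, adjusted p = 0.0381). It was not called on the other probes, which differed by 2.78 on ILMN_1227148 (adjusted p = 0.0677) and by -0.23, the opposite direction, on ILMN_2604713 (adjusted p = 0.862). On ILMN_2999627 the fall from P6 to P20 was 6.35 ± 0.94 on the log2 scale (adjusted p = 0.000108). From P13 to P20 Gjb2 fell by 5.97 (adjusted p = 0.000226). Both falls passed on all 3 probes.

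Gja1 in controls read 14.44, 14.21, 13.80 and 13.82 at P3. It read 15.24 and 15.16 at P6 and 15.05 and 15.15 at P13, above all P3 controls. It rose from P3 to P6 by 1.13 ± 0.22 (SE, adjusted p = 0.00118) and fell from P6 to P20 by 1.68 ± 0.24 (SE, adjusted p = 6.68e-05). Called shares of all genes in controls, in either direction, were 33.4% from P3 to P6, 25.7% from P3 to P13, 1.84% from P6 to P13, 24.4% from P13 to P20 and 18.3% from P3 to P20. From P6 to P20 in controls 3 of the 4 connexins fell, where 27.6% of all genes were called in either direction and 14.8% fell.

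The moderated F test over the 4 ages passed in controls for Gja1 (adjusted p = 4.77e-05), Gjb2 (0.000120) and Gjb6 (9.29e-07), and not for Gjb5 (0.0624). Of all genes 45.1% passed it. In mutants Gjb6 passed (0.00944), while Gja1 (0.178) and Gjb2 (0.124) did not, against 24.7% of all genes. Gjb6 in mutants read 11.01 and 10.52 at P3, 12.64 and 11.70 at P6, and 13.59 and 13.21 at P13. The rise from P3 to P13 was 2.64 ± 0.51 (SE, adjusted p = 0.00145), between ages at which 26.3% of all genes were called. From P6 to P20 the mutants differed by -0.03 (95% interval -1.11 to 1.06, adjusted p = 0.987), with 0.76% of all genes called. Ages were spread over different chips, and with chip as a random block the mutant F test of Gjb6 did not pass (adjusted p = 0.0616).

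Hair follicle, dermal and other markers differed between the ages in controls too. The hair shaft and inner root sheath list summed to 153669 to 240278 in P3 controls, 199068 to 207174 at P6, 299768 to 316083 at P13 and 447 to 3623 at P20. Fibroblast markers in controls summed to 939 to 1562 at P3, 50284 to 61912 at P6, 35236 to 48455 at P13 and 1210 to 4606 at P20. Control melanocyte sums were 1955 to 3358 at P3, 8194 to 12668 at P6, 11813 to 12617 at P13 and 273 to 3117 at P20. Mitosis genes summed to 1046 to 2010, 5053 to 5966, 5473 to 5696 and 669 to 2227 at the same ages. Langerhans and myeloid markers were instead highest in P20 controls (13910 to 28246, against 2427 to 6691 at P3). In P13 mutants the hair list summed to 1212 to 1822, and Gjb6 was at its highest among the P3 to P20 groups there. In P20 mutants the fibroblast list (772 to 932) and the hair list (533 to 746) were low, with Gjb6 at 12.02 and 12.27. The part of these cells in the age differences of the controls was not tested.

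Whether the genotype difference changed with age was tested directly. For Gjb6 the difference at P20 exceeded that at P3 by 5.40 ± 0.64 (SE, adjusted p = 0.000159), that at P6 by 4.63 ± 0.69 (adjusted p = 0.000543) and that at P13 by 3.19 ± 0.69 (adjusted p = 0.0106). For Gjb2 the P20 difference exceeded that at P3 by 5.31 ± 1.30 (SE, adjusted p = 0.0354), at P6 by 5.05 ± 1.40 (adjusted p = 0.0328) and at P13 by 4.73 ± 1.40 (adjusted p = 0.04996). The last of these sits just under the threshold and missed it without background correction (3.97, adjusted p = 0.0549). These Gjb2 calls depended on the probe, with p-values adjusted over all probes. On ILMN_1227148 the P20 difference exceeded that at P3 by 5.35 (adjusted p = 0.0998), at P6 by 4.39 (0.162) and at P13 by 4.66 (0.129), and none was called. On ILMN_2604713 the values were 3.16 (adjusted p = 0.210), 1.40 (0.641) and 4.87 (0.0329), of which the last was called. For Gja1 the P20 difference exceeded that at P6 by 1.35 ± 0.35 (SE, adjusted p = 0.0229). The sign turned between them, from -0.98 at P6 to 0.37 at P20, and the latter was not called. These comparisons share the P20 arrays. Across all genes 3.52% were called for P20 against P3, 8.88% for P20 against P6 and 7.69% for P20 against P13, and 2, 3 and 2 of the 4 connexins were. None of the 4 was called for P6 against P3 (11% of all genes), P13 against P3 (8.03%) or P13 against P6 (10%).

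**Figure D2:**
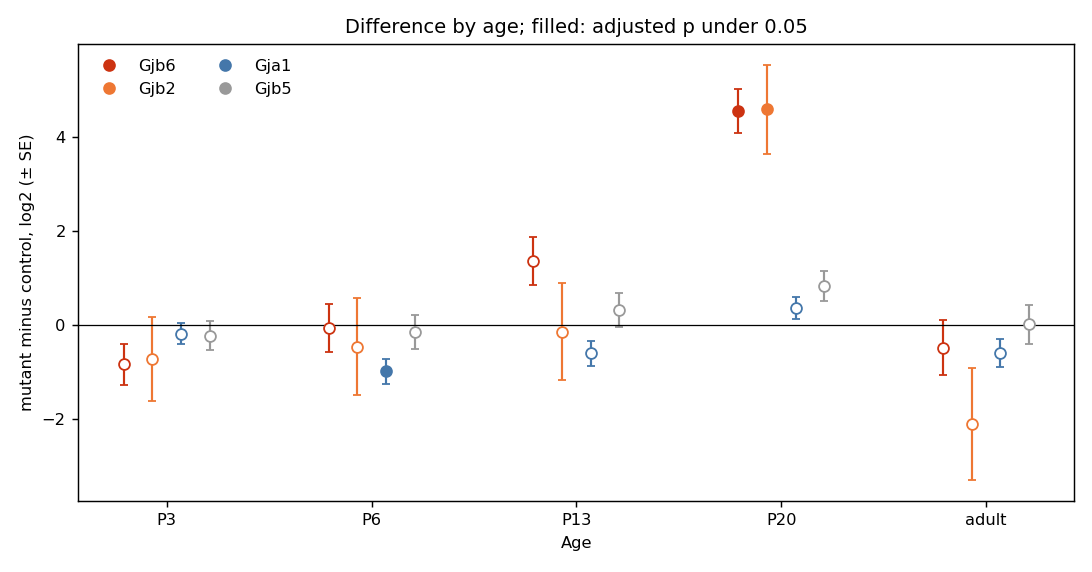
Mutant minus control on the log2 scale (vertical axis, bars are SE from limma) by age for the 4 connexins, with filled circles where the adjusted p is under 0.05. The filled circles are Gja1 (-0.98) at P6 and Gjb6 (4.57) and Gjb2 (4.60) at P20.

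At P6 the member that differed was Gja1. It read 15.24 and 15.16 in controls and 14.32 and 14.12 in mutants, so both mutants lay below both controls. Gja1 fell by 0.98 ± 0.26 on the log2 scale (SE, adjusted p = 0.0117), which put the mutants within the range of the P3 controls. Of the 4 connexins 1 was called at P6, where 22.8% of all genes were called and 13.2% fell. The call ended without control sample 4, which lay on a chip of its own and left only the chip with both genotypes (-1.01, adjusted p = 0.0591). It also ended without mutant sample 2 (-0.88, adjusted p = 0.0942) and without control sample 3 (-0.94, adjusted p = 0.0727). The probe reached 0.766 of the highest signal of an array, and compression of bright signals was not tested.

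Markers of dermal cells fell with Gja1 at P6. All 11 fibroblast genes tested were lower in P6 mutants, with summed intensities of 752 to 805 against 50284 to 61912 in controls, and Col1a1 and Col3a1 were detected in 0 of 2 mutants and 2 of 2 controls. Of the endothelium and blood list 7 of 9 were lower (408 to 802 against 16588 to 17782). Of the smooth and skeletal muscle list 4 of 8 were lower (935 to 1604 against 10944 to 12750). The hair shaft and inner root sheath list had 8 of 11 lower (37812 to 51749 against 199068 to 207174). Other lists moved in the same arrays. Melanocyte markers had 2 of 5 lower (4324 to 5888 against 8194 to 12668), hair follicle stem cell markers 6 of 6 (6494 to 6650 against 19627 to 25828), hair matrix markers 4 of 5 and mitosis genes 6 of 7 (947 to 1854 against 5053 to 5966). Langerhans and myeloid markers had 6 of 8 higher (14905 to 15777 against 2144 to 4333), and the wound list 9 of 10. The part of these cells in the Gja1 difference was not tested.

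The remaining members were not called at P6. Gjb6 read 12.29 and 12.17 in controls and 12.64 and 11.70 in mutants, which lay on either side of the controls. Its difference was -0.06 with a 95% interval from -1.14 to 1.02. Gjb2 read 14.05 and 14.04 in controls and 14.03 and 13.15 in mutants, a difference of -0.45 (95% interval -2.65 to 1.74, adjusted p = 0.817). Its other probes differed by 0.15 and 1.13 in the opposite direction, also without passing (adjusted p = 0.958 and 0.458).

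P13 gave no call among the 4 members, where 20.5% of all genes were called. Gjb6 came nearest: both mutants (13.59, 13.21) stood above both controls (11.88, 12.18). The difference was 1.37 ± 0.51 (SE, adjusted p = 0.0692), or 2.59-fold. All P13 arrays lay on 1 chip, so a chip term left this difference at 1.37 and changed only its SE and p-value. The Gjb6 difference passed the threshold in the authors' normalized values (1.38, adjusted p = 0.00359), with the chip as a block, fixed or random (adjusted p = 0.00914 and 0.0186) and in a fit of P13 arrays alone (adjusted p = 0.00898). With each array left out it ranged from 1.18 to 1.56 and was not called.

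Gja1 at P13 read 15.05 and 15.15 in controls and 14.64 and 14.38 in mutants. Both mutants were lower, and the difference of -0.60 ± 0.26 (SE, adjusted p = 0.124) passed in the authors' normalized values (-0.65, adjusted p = 0.0244). Fibroblast markers at P13 had 1 of 11 higher and 1 of 11 lower in mutants (26633 to 30488 against 35236 to 48455). Hair shaft and inner root sheath markers had 11 of 11 lower (1212 to 1822 against 299768 to 316083), hair matrix markers 5 of 5 and hair follicle stem cell markers 4 of 6. Melanocyte markers had 1 of 5 lower (5450 to 5784 against 11813 to 12617), mitosis genes 2 of 7 and smooth and skeletal muscle markers 1 of 8. Higher in mutants were 3 of 9 endothelium and blood markers, 1 of 4 fat cell and 1 of 8 Langerhans and myeloid markers. So were 3 of 7 spinous and granular genes and 6 of 10 of the wound list. The part of these cells in the Gja1 values was not tested.

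The Gjb2 probes disagreed at P13. On ILMN_2999627 the controls read 13.58 and 13.74 and the mutants 13.58 and 13.48, a difference of -0.13 (95% interval -2.33 to 2.06). On ILMN_1227148 the difference was -0.12. On ILMN_2604713 both mutants (8.26, 8.14) lay about 2 units below both controls (10.13, 10.94), and the difference of -2.33 ± 0.95 (SE) had an adjusted p of 0.102. Over all 24 arrays ILMN_2999627 and ILMN_1227148 correlated with r = 0.959, and ILMN_2604713 correlated with them with r = 0.802 and 0.787. Where on the transcript the probes lie is not given in the sources used here.

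**Figure D3:**
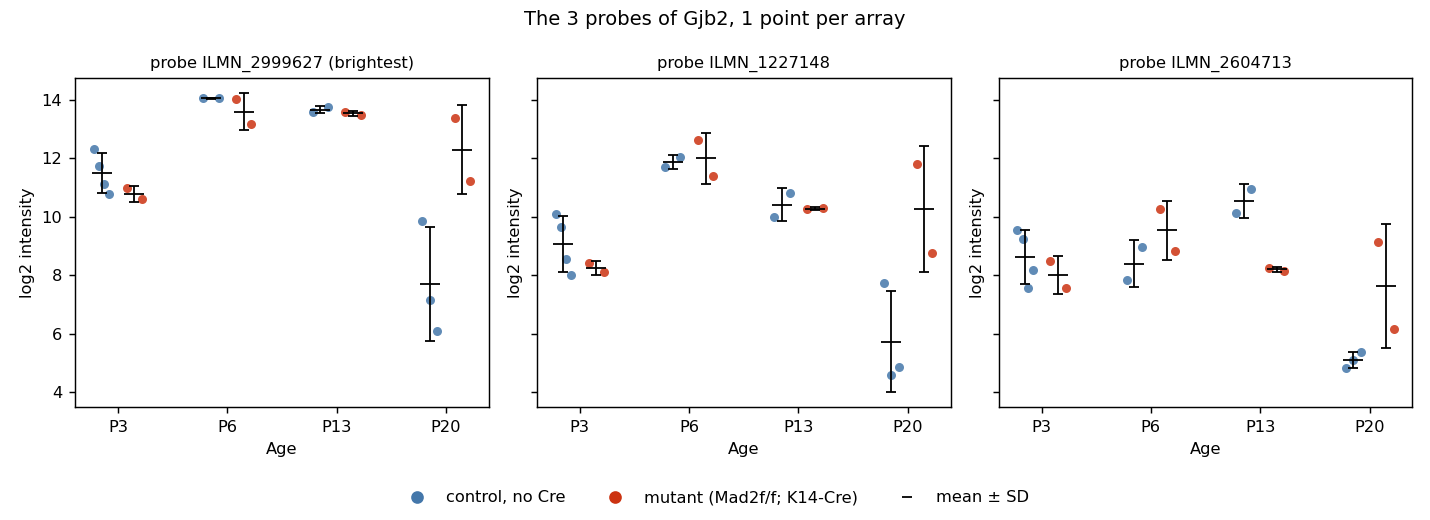
Log2 intensity (vertical axis) of the 3 Gjb2 probes by age, 1 point per array, with blue for controls, red for mutants and black bars for mean ± SD. All 3 probes are lowest in P20 controls, while at P13 the mutants lie below the controls on ILMN_2604713 alone (8.26 and 8.14 against 10.13 and 10.94).

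At P3, when mutants had no recorded phenotype, none of the 4 connexins was called, against 1.93% of all genes. Gjb6 read 11.01 and 10.52 in mutants, below each of the 4 controls (11.23 to 12.03), with a difference of -0.83 ± 0.44 (SE, adjusted p = 0.768). Gjb2 read 10.97 and 10.59 in mutants against 10.77 to 12.33 in controls, which overlap, and differed by -0.71 ± 0.90 (adjusted p = 1.00). Gja1 read 13.93 and 13.85 against 13.80 to 14.44, a difference of -0.18 with a 95% interval from -0.66 to 0.30. Marker lists already differed at this age. Hair shaft and inner root sheath markers had 7 of 11 lower in mutants (16477 to 23968 against 153669 to 240278). Lower too were 1 of 5 hair matrix and 1 of 6 hair follicle stem cell markers. Higher were 3 of 10 of the wound list and 1 of 8 Langerhans and myeloid markers. The part of these cells in the P3 values was not tested.

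Ordered by level, the P3 to P20 groups ran differently for each gene. Gjb6 was highest in P13 mutants, whose lower array exceeded every other array of these ages. P6 controls, P6 mutants, P20 mutants and P13 controls followed with means from 12.23 to 12.03 and ranges that overlapped with that of the P6 mutants. P3 controls overlapped with the P13 controls, P3 mutants lay below them, and P20 controls were last. Gjb2 was highest in P6 controls, just above every other array of these ages, and P13 controls, P6 mutants and P13 mutants followed within the range of the P6 mutants. P20 mutants overlapped both with P6 mutants and with P3 controls, P3 mutants overlapped with P3 controls, and P20 controls were again last. Gja1 was highest in P6 and P13 controls, which did not differ in the test (-0.10, adjusted p = 0.949). P13 mutants, P6 mutants, P20 mutants and P3 mutants each overlapped with the range of the P3 controls, and P20 controls were last there too.

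Adult mutant arrays differed widely among themselves, and none of the 4 connexins was called, against 11.9% of all genes. The comparison sets 3 mutants against 1 control array, whose spread is taken from the other groups. Gjb6 read 11.61 in the Mad2f/+ control, 9.01 in the mutant without the p53f/+ allele, and 11.11 and 13.29 in the p53f/+ mutants. Mutant arrays lay on both sides of the control, and the mean difference was -0.47 ± 0.59 (SE, adjusted p = 0.712). It was -1.55 and called without p53f/+ mutant sample 3 (adjusted p = 0.0305), and it was 0.59 without the mutant lacking that allele (adjusted p = 0.601).

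Gjb2 in adults read 13.58 in the control, 9.03 in the mutant, and 11.16 and 14.26 in the p53f/+ mutants, in the same order as Gjb6. Its mean difference was -2.10 ± 1.19 (SE, adjusted p = 0.319). Without the chips with subtracted background, G and H, it was -1.93 and called. The mutants kept there stood at -4.55 and 0.68 from the control, on opposite sides of it. That setting also took the P20 arrays of chip G out of the pooled spread. With each adult mutant left out alone, Gjb2 was not called. Gja1 read 14.88 in the control, 13.77 in the mutant, and 14.26 and 14.84 in the p53f/+ mutants, with a difference of -0.59 ± 0.30 (adjusted p = 0.252). Fibroblast markers differed between these arrays as well, with sums of 105139 in the control, 40653 in the mutant, and 600 and 694 in the p53f/+ mutants. Hair shaft and inner root sheath markers had 11 of 11 lower, at 241510 in the control and 361 to 4390 in mutants. Fat cell markers had 4 of 4 lower in the comparison, hair follicle stem cell markers 5 of 6, endothelium and blood markers 5 of 9 and melanocyte markers 3 of 5. The part of these cells in the adult values was not tested. Mutants with and without the p53f/+ allele, 2 arrays and 1, were not tested against each other.

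Gjb5 gave a signal near background throughout. Its probe was detected in 4 of the 23 arrays that have a detection p-value, namely 2 of 4 P3 controls, 1 of 2 P20 mutants and 1 of 3 P20 controls. It read 6.31, 5.01, 5.65 and 6.30 in P3 controls and 5.604 and 5.595 in P3 mutants. At P20 it read 5.71, 4.94 and 5.17 in controls and 6.02 and 6.21 in mutants. The difference at P20 was 0.84 ± 0.33 (SE, adjusted p = 0.125), between groups in each of which 1 array detected the probe. The remaining P6, P13 and adult arrays read 4.80 to 5.27, none of them detected where a detection p-value was held. The level in most groups thus has only an upper bound. In controls Gjb5 was called lower at P13 than at P3 (adjusted p = 0.0269), where 25.7% of all genes were called. No P13 control detected the probe and 2 of 4 P3 controls did, so the size of this difference is not known. The F test over the ages in controls did not pass (adjusted p = 0.0624). No other Gjb5 difference between genotypes or ages was called in the same model.

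Gjb2 and Gjb6 correlated over the 20 arrays of P3 to P20, with Pearson r = 0.895 and Spearman rho = 0.866. The 3 P20 controls were the lowest arrays for both genes, and r without them was not computed. Elsewhere the genes parted at times. Gjb6 was highest in P13 mutants, where Gjb2 differed from controls by -0.13. From P3 to P6 in controls Gjb2 rose by 2.55 and Gjb6 differed by 0.64 without a call (adjusted p = 0.286). Gjb2 was the third most similar gene to Gjb6 among all genes tested, after Phlda1 (r = 0.942) and Ankrd13a (0.903) and before Aars (0.889) and Ppa1 (0.885). The genes most like Gjb2 were Atp5mpl (r = 0.939), Tubb6 (0.933), Plk2 (0.919), Tpm2 (0.917) and Dct (0.900). For Gja1 they were Csnk1g3 (r = 0.951), Pdlim7 (0.941), Mlana (0.922), Mrps33 (0.919) and Cdh6 (0.913). Dct and Mlana are melanocyte genes. The genes most like Gjb5 reached at most r = 0.782, on a signal near background. These correlations describe arrays that share age groups, genotypes and chips.

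**Figure D4:**
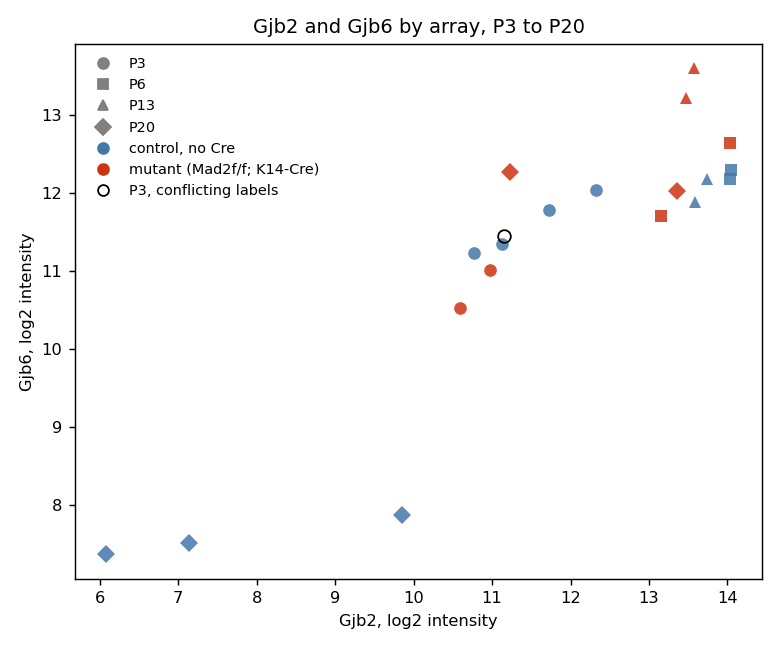
Log2 intensity of Gjb6 (vertical axis) against that of Gjb2 (horizontal axis), 1 point per array of P3 to P20, with marker shape for age, blue for controls, red for mutants and an open circle for the P3 array with conflicting labels. The 3 P20 controls stand alone at the lower left, with Gjb6 between 7.36 and 7.87, and the 2 P20 mutants lie among the other arrays.

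Among the other connexins and pannexins, 8 of 17 genes reported here passed the filter on detection. At P6 none was higher and 3 were lower in mutants, against 13.2% of all genes, with a median difference of -0.47 against -0.04 over all genes. The 3 lower genes were Gja4 and Gja5, connexins of vessel walls, and Gjc1, a connexin of smooth muscle and heart. Gja4 fell by 1.82 on the log2 scale (adjusted p = 0.00362). Gja5 and Gjc1 were not above background in either P6 mutant, so their levels there are bounds. Gja5 was at least 2.55-fold lower (adjusted p = 0.0106) and Gjc1 at least 1.13-fold lower (adjusted p = 0.00515) than in the P6 controls. They moved together with the endothelium and blood list described above, whose part was not tested. At P13 Panx1, a pannexin channel that releases ATP, was higher in both mutants (10.72 and 10.56 against 9.69 and 9.57), a rise of 1.01 ± 0.27 (SE, adjusted p = 0.0143). Panx3 read 7.40 and 8.09 in P13 mutants against 9.56 and 8.83 in controls and was not called (adjusted p = 0.183). None of the 8 genes was called at P3, P20 or in adults.

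Partners and regulators of connexins had 12 of 14 genes tested. At P6 3 were lower in mutants and none higher, where 22.8% of all genes were called and 13.2% were lower, with a median of -0.41 against -0.04 over all genes. The share called was near that of all genes. Cav1, the caveolar coat protein, fell by 4.82 ± 0.58 (SE, adjusted p = 2.02e-05), and Prkca, a protein kinase C that phosphorylates Cx43, by 1.79 ± 0.54 (adjusted p = 0.0258). The Prkca value is that of its brightest probe. Another probe, ILMN_1217890, averaged 5.45 in P6 controls and 5.08 in mutants. It was above background in 2 of 2 controls and 0 of 2 mutants, too near background for a bound. Dbn1, the actin-binding drebrin that binds Cx43, was not above background in either mutant and was at least 1.01-fold lower there (adjusted p = 0.0216). Cav1 is abundant in fibroblasts, endothelium and fat cells, of whose lists 11 of 11, 7 of 9 and 2 of 4 genes were lower in the same arrays, and their part was not tested. The scaffold gene Tjp1, Cdh1 and Ctnnb1 were not among the called genes. No gene of this list was called at P3, P13, P20 or in adults.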

How the data were processed

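Epidermal RNA of 24 samples was hybridized to 24 Illumina BeadChip arrays on 8 chips, named A to H here. The scanner file deposited by the authors holds an average bead intensity per probe, not normalized between arrays. In 4 arrays, those of chips G and H, values below 0 showed that a background was already subtracted. Each intensity has a detection column, per the file headers. In 10 of these deposited columns the values were the detection p-value and in 13 the fraction 1 minus it. The 1 per-sample column that held bead numbers instead, of adult sample 3, was not used. The authors also deposited log2 values normalized with limma, per the submitters' processing notes, and these served as an alternative. For the adults that matrix held no probe of the 4 genes.

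Intensities were corrected by the normal-exponential model with detection p-values and an offset of 16, then quantile-normalized across arrays and logged to base 2, using limma 3.58.1 in R 4.3.3. Probes had to be detected (p under 0.01) on 2 or more arrays, which left 20430, and each gene took its probe with the highest mean (14215 genes). Each group had its own mean in 1 linear model of all arrays, with 12 residual degrees of freedom and 3.89 from the prior, and Benjamini-Hochberg adjustment over all genes in each contrast. A bound ("at least") compares the bright mean with, per array, the higher of the lowest detected signal and the dim value. The fit was checked on simulated data with known changes. No pair of arrays was a copy.

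Named genes were the 4 members, Mad2l1, other connexins and pannexins past the threshold or detected in at least 12 arrays, the called partners, and the 5 genes most correlated with each member. The 4 genes, the lists and the tests were chosen with earlier results of these data known. Some genes of the lists of connexins and their partners are not reported here, and the counts and medians of those lists leave them out. Alternatives were background correction, offset, filter, probe choice, chip terms, group choice, the authors' values and each array left out. Positions and promoters are RefSeq's for GRCm38.p6, and 4 of 4 genes matched. No paired analysis was possible because sample numbers run through each age, so that mutants and controls share none.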

Additional observations from a re-analysis of the deposited data

Results flagged for a closer look

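The following results drew attention because the difference between genotypes itself differed between 2 ages in the limma test, adjusted over all genes. Differences here are mutant minus control and keep their sign. For Gjb6 the P20 difference lay above that at P3 by 5.40 (adjusted p = 0.000159). It lay above that at P6 by 4.63 (0.000543) and that at P13 by 3.19 (0.0106). For Gjb2 the P20 difference lay above that at P3 by 5.31 (adjusted p = 0.0354). It lay above that at P6 by 5.05 (0.0328) and that at P13 by 4.73 (0.04996). These Gjb2 values are those of its brightest probe. On ILMN_1227148 none of the 3 was called (adjusted p = 0.0998, 0.162 and 0.129), and on ILMN_2604713 only that against P13 was (0.210, 0.641 and 0.0329). For Gja1 the difference was -0.98 at P6 and 0.37 at P20, a change of 1.35 with a turn of sign (adjusted p = 0.0229). The P20 difference of Gja1 was not itself called. In the only group of 4 arrays, the P3 controls, no array stood apart from the others for any of these genes by Dixon's test. With 4 arrays that test needs a gap above 0.829 of the range, so it flags little. The P6, P13 and P20 groups behind these results, of 2 or 3 arrays, were not checked by it.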

How the results depend on the processing

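Precision is limited by the number of arrays, 2 to 4 a group, and dim probes by their signal over background. Of 386 values recomputed for 52 results under the alternatives, 351 kept their direction and their side of the threshold. The cause of the exceptions was not tested. Gja1 at P6 lost its call within its chip (-1.01) and ranged from -1.08 to -0.88 with each array left out. Gjb2 at P20 lost it on probe ILMN_2604713 alone (2.54), within chip F (3.51, added after the data were seen) and with only the groups compared (4.60), and ranged from 3.53 to 5.68 with each array left out. Gjb6 at P20 stayed past the threshold in every setting run, from 3.53 in the authors' values to 4.83 within chip G. At P13 the authors' values brought a call for Gja1 (-0.65) and Gjb6 (1.38), and so did, for Gjb6 at 1.37, chip as a fixed block, chip as a random block and only the groups compared. Gjb5 at P20 ranged from 0.67 to 1.06 and was called without control sample 3. Directions turned among uncalled differences: at P6 for Gjb2 with the mean of its probes (0.28), ILMN_2604713 (1.13) or ILMN_1227148 (0.15), and for Gjb6, which ranged from -0.53 to 0.40 with each array left out. In adults Gjb5 turned with chip as a fixed block (-0.0496) and ranged from -0.0523 to 0.12. Gjb6 there turned with the same block (0.25) and ranged from -1.55 to 0.59. Gjb2 in adults was called without the chips with subtracted background (-1.93), and not with each adult mutant left out alone.

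Between ages, the authors' values brought calls for Gja1 at P6 against P3 (-0.88) and P20 against P13 (1.03), and for Gjb6 at P13 against P3 (2.15) and against P6 (1.43). Chip as a random block did so for Gja1 at P20 against P13 (0.96) and Gjb6 at P13 against P3 (2.27), and turned Gjb5 at P6 against P3 (-0.0184). Without background correction Gjb6 at P13 against P3 was called (2.14) and Gjb2 at P20 against P13 was not (3.97). The F statistic over ages in mutants was called for Gjb2 in the authors' values (7.19) and not for Gjb6 with chip as a random block (6.00). The count of all genes called moved with the setting: 274 at P3 (71 to 439), 3234 at P6 (1753 to 5958), 2921 at P13 (1347 to 4827), 1433 at P20 (63 to 3228) and 1688 in adults (116 to 2875). No paired analysis was possible because mutants and controls of an age share no sample number.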

Other observations

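The P3 array whose labels conflict entered no group. It read 11.44 for Gjb6, 11.15 for Gjb2, 13.76 for Gja1 and 5.73 for Gjb5. The Mad2l1 probe described above was detected in this array, in 4 of 4 P3 controls and in 0 of 2 P3 mutants. Its hair shaft and inner root sheath list summed to 150061, against 153669 to 240278 in P3 controls and 16477 to 23968 in P3 mutants. Which label is right was not tested. Counted as a mutant or as a control, the array left all 4 members uncalled at P3.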
